A study of Homo sapiens with 9 samples.

Results

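Of the 870 miR-342-5p Ago binding peaks in 3′UTRs, 497 (57.1%) had no 7mer or 8mer match to the miR-342-5p seed within 50 nt of the summit, the point of highest read cover in a peak. These 3′UTR peaks are described here and called seedless, which means only that no 7mer or 8mer lay in that window. A shorter or imperfect match to the seed was present in 243 of them (48.9%). The 497 peaks make up 9.92% of the 5010 peaks in the miR-342-5p list, and this list and that of miR-342-3p hold 8460 peaks together. A peak was a member when its midpoint lay in an annotated 3′UTR of a protein-coding gene on the same strand. The window around its summit also had to hold neither 7mer (GCACCCC or CACCCCA) whole, nor both joined as the 8mer (GCACCCCA). The other 373 3′UTR peaks held a site and serve as the main comparison. The rule used position and sequence and not the score of a peak.

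Ago-HITS-CLIP crosslinks Argonaute proteins to the RNA they hold, and the fragments that remain attached after immunoprecipitation are sequenced. It was carried out in 231HM, a highly metastatic variant of the human triple-negative breast cancer line MDA-MB-231, of wild-type genotype by its label. All 9 libraries came from cells transfected with 20 nM of a mirVana mimic and crosslinked 48 h later, with 3 libraries each for miR-342-3p, miR-342-5p and a negative control. A transfected mimic can exceed the level a cell normally holds, and only mimic-treated cells of 1 line were compared. The labels do not say whether replicates were separate cultures. The deposited lists merge the replicates, so no value per library, no depth per library and no replicate error is known, and the identity of the line could not be checked against markers. Peaks are not replicates. The tests and 95% confidence intervals (CI, Wilson) treat them as units and cover counting error only, although peaks that lie side by side in a gene are not independent.

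A miRNA guides Argonaute to mRNAs mainly through its seed, the bases near its 5′ end, which pair with complementary sites that most often act from the 3′UTR. An 8mer or 7mer pairs along the whole seed or nearly so. A 6mer, an offset 6mer, a G:U wobble pair or a bulged base give weaker pairing, and sites of these kinds are known to repress less on average. Crosslinking also recovers contacts without any recognisable pairing.

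The mature miR-342-5p is shown first, from the RefSeq table, with its seed (bases 2 to 8) in capitals. The 30-nt stretches below it are hg19 sequence on the strand of the transcript. They come from high peaks of each kind and show in capitals the best match that remained once 7mers and 8mers were absent.
miR-342-5p: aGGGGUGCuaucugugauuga
P4HB, 6mer: gaagugacaccuCACCCCuacacaccgucc
CMIP, 6mer: cggagacucuguCACCCCugggcucccccu
FOSL1, 6mer: ccuaacuccuuuCACCCCcagccuggucuu
CALR, 6mer: cucuucucauuuCACCCCucccuuucuccc
BSG, 6mer: gccuccccagcuCACCCCuggaggacggcc
TECR, 6mer: gcucugagcgcuCACCCCugcugaggcuca
SLC7A5, 6mer: aagaccuuuauuCACCCCugccccguugcu
SERTAD2, offset 6mer: cacacugugcauGCACCCuugcuugccuuu
MARK3, G:U wobble: gugcaaccuauGCGCCCCcugcccuacuuc
BSG, bulge: ccacaccgaggGCGACCCCgucacagccuc
FOSL1, 5 bases: acccauccucugACCCCcuuggcucuccaa
RPL23, no match: aaggagugugcagacuuguggccccggauu
IFITM3, no match: ucaugaccauucugcucaucgucaucccag

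The 6mer, CACCCC, pairs with bases 2 to 7 of miR-342-5p, and the offset 6mer, GCACCC, with bases 3 to 8. A U after the match is complementary to base 1 of miR-342-5p, and whether that base pairs was not tested. The P4HB stretch lies at chr17:79801731-79801760 on the minus strand and the CMIP stretch at chr16:81744490-81744519 on the plus strand. The FOSL1 6mer lies at chr11:65660469-65660498 and its 5-base match at chr11:65660374-65660403, both on the minus strand. CALR is at chr19:13055163-13055192, the BSG 6mer at chr19:583381-583410 and TECR at chr19:14676677-14676706, all on the plus strand. SLC7A5 is at chr16:87864890-87864919 and SERTAD2 at chr2:64862965-64862994 on the minus strand. MARK3 is at chr14:103969751-103969780 and the BSG bulge at chr19:583249-583278 on the plus strand. RPL23 is at chr17:37006412-37006441 and IFITM3 at chr11:319864-319893 on the minus strand, and both of these positions are coding in another transcript.

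The 5 highest seedless peaks lay in P4HB, ENSG00000285043, PLEC, CMIP and FOSL1. P4HB, a protein disulphide isomerase of the endoplasmic reticulum, had the highest score, 710, in a peak of 160 nt with 2 6mers. The score is described by the authors as reads above background, is not scaled to the abundance of the mRNA, and peak height and mRNA abundance cannot be told apart from the lists. The second score, 495, lay in a 3′UTR of ENSG00000285043, a gene without a symbol whose peak is also coding in ALDOA, a glycolytic enzyme. PLEC, which encodes the cytolinker plectin, followed with 408, and CMIP, an adaptor protein, with 361. FOSL1, an AP-1 transcription factor subunit, held 3 of the 9 highest peaks, at 293, 241 and 234.

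Of the next peaks, RPL23, a protein of the large ribosomal subunit, scored 229, and CALR, the chaperone calreticulin, 219. BSG, the surface glycoprotein basigin, had peaks of 201 and 195. IFITM3, an interferon-induced antiviral membrane protein, scored 168, and TECR, an enzyme of very long chain fatty acid synthesis, 152. Among the 15 highest peaks, 8 held a 6mer and 7 held no 6mer, offset, wobble or bulged match.

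In the 497 peaks the score ran from 5, the minimum in the list, to 710, with a median of 15 and quartiles of 10 and 27. The 373 peaks with a site ran from 5 to 1365, with a median of 21 and quartiles of 13 and 44. A score above 50 was reached by 60 seedless peaks (12.1%, CI 9.50–15.2%) and by 76 peaks with a site (20.4%, CI 16.6–24.8%), against 17.0% of all miR-342-5p peaks. The difference was -8.30 percentage points (Fisher's exact test, two-sided, odds ratio 0.537, p = 9.5e-04, adjusted p = 0.00174). For scores of at least 20 it was -14.4 points. All adjusted p-values in the main comparisons are Benjamini-Hochberg values over 11 tests. At the low end, 109 seedless peaks (21.9%) and 22 peaks with a site (5.90%) scored under 10. Above 100 there were 24 seedless peaks and 30 with a site, and the difference there, -3.21 points, did not pass 0.05 (same exact test, p = 0.0643).

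Width, base content and position were compared next. The median width was 79 nt (range 11–318) for seedless peaks and 92 nt for peaks with a site, and the median GC content of the windows was 58.4% and 57.4%. Seedless peaks lay at a median of 434 nt from the stop codon in 3′UTRs with a median length of 1596 nt, and peaks with a site at 557 nt in 3′UTRs of 1925 nt. The first 25% of the 3′UTR held 191 seedless midpoints (38.4%) and 144 midpoints of peaks with a site (38.6%), a difference of -0.175 points (Fisher's exact test, two-sided, p = 1, adjusted p = 1). Seedless peaks lay on 22 chromosomes, with 90 (18.1%) on chromosome 19. The share of other peaks or of genes on chromosome 19 was not counted, so the 18.1% shows no excess. On the plus strand lay 265 seedless peaks and 178 peaks with a site.

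A 6mer alone, outside any longer match, lay near the summit of 169 seedless peaks (34.0%, CI 30.0–38.3%). The opposite strand of these windows held it in 10 cases (2.01%), a difference of 32.0 points (exact McNemar test, two-sided, p = 1.4e-40, adjusted p = 7.8e-40). In windows 200 nt away on the same strand, 47 (9.46%) held it on the 5′ side and 33 (6.64%) on the 3′ side. Base composition moved with this comparison, and its part in the result was not tested. C made up 32.8% of the bases on the strand of the peak, 24.2% on the opposite strand, 29.9% in the 5′ flank and 27.7% in the 3′ flank.

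The 6mers sat at the summits. Of 180 6mers in these windows, 126 (70.0%) had their centre within 10 nt of the summit and 161 (89.4%) within 20 nt. More than 1 6mer was present in 11 peaks. The base before the match was U in 94 (52.2%), C in 59 (32.8%) and A in 27 (15.0%), and the base after it was U in 88 (48.9%), C in 63 (35.0%) and G in 29 (16.1%). A G before or an A after would have made a 7mer and was removed by the rule. The 7-base word UCACCCC was in 92 windows, against 5 on the opposite strand and 20 and 10 in the flanks, and CACCCCU was in 86, against 5, 23 and 22.

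**Figure D1:**
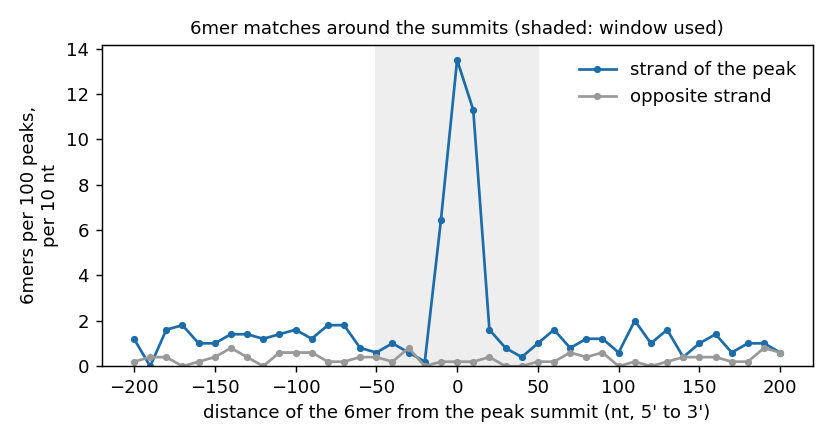
Number of 6mers per 100 seedless 3′UTR peaks in each 10 nt (y axis) by distance from the summit in nt (x axis), on the strand of the peak (blue) and the opposite strand (grey). The shaded part is the window of 50 nt on each side, and 126 of the 180 6mers on the strand of the peak in that window lie within 10 nt of the summit.

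The offset 6mer was rare. It was near the summit in 20 seedless peaks (4.02%) and in 9 windows (1.81%) on the opposite strand, a difference of 2.21 points that did not pass 0.05 (exact McNemar test, two-sided, p = 0.0614, adjusted p = 0.0751). With sites searched over the whole peak or within 25 nt of the summit, it passed, at 2.95 (exact McNemar test, p = 0.00813) and 2.50 points (p = 0.00235). The offset 6mer was the best match of 15 peaks, of which the highest were in SERTAD2, ATRN, ERP44 and FAM174C, followed by SLC7A5 and FAM222B with equal scores. SERTAD2, a transcriptional coregulator, scored 56. ATRN, the transmembrane protein attractin, scored 31 and ERP44, a thioredoxin-like protein of the early secretory pathway, 24. The FAM174C peak scored 23, and those in SLC7A5 and FAM222B 21 each.

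A seed match with a G:U wobble pair or a bulged base lay near 71 summits (14.3%), against 30 windows (6.04%) on the opposite strand, a difference of 8.25 points (exact McNemar test, two-sided, p = 1.3e-05, adjusted p = 3.5e-05) that was 16.7 points above a score of 50. The flanks held such matches in 29 windows (5.84%) and 39 windows (7.85%). The wobble forms alone were in 54 windows against 17 on the opposite strand and 14 and 21 in the flanks. The bulged forms were in 29 against 15, with 20 and 26 in the flanks. As the best match of a peak, these forms accounted for 59 peaks (11.9%). They included TMEM43, an inner nuclear membrane protein, with a score of 149, a BSG peak with 136 and MARK3, a microtubule affinity-regulating kinase, with 123.

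Matches were concentrated at the 5′ end of the miRNA. Each stretch of 6 bases along miR-342-5p was searched for in turn, as a description without a test. The match to bases 1 to 6, ACCCCU, was in 114 windows (22.9%), against 6 on the opposite strand and 36 and 27 in the flanks. The match to bases 4 to 9 was in 26 windows (5.23%), against 16 on the opposite strand and 13 and 19 in the flanks. Further along, the match to bases 11 to 16 was in 29 windows (5.84%) but in 44 on the opposite strand. The remaining stretches, other than those from bases 2, 3 and 12, were each in at most 2.21% of windows.

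**Figure D2:**
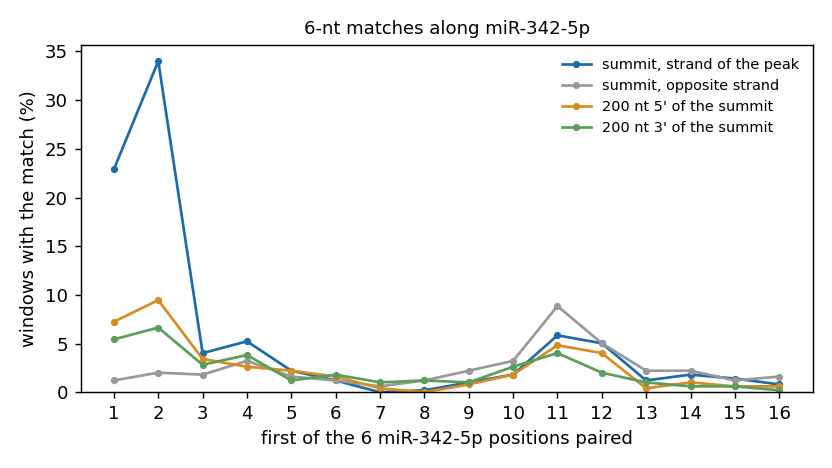
Percentage of windows with a perfect 6-base match to miR-342-5p (y axis) by the first miRNA base that is matched (x axis). Lines show the summits of the 497 seedless peaks on the strand of the peak (blue) and the opposite strand (grey), and 200 nt to the 5′ (orange) and 3′ side (green). The matches from bases 1 and 2 stand at 22.9% and 34.0% at the summits.

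The shorter word ACCCC, which pairs with bases 2 to 6, was in 266 windows (53.5%), against 39 (7.85%) on the opposite strand and 124 (24.9%) and 98 (19.7%) in the flanks. It was examined after the counts of words had been seen and is given without a test. In 96 windows (19.3%) it occurred with a mismatch at base 7 and without any 6mer, against 24 (4.83%) on the opposite strand and 44 (8.85%) and 30 (6.04%) in the flanks. Peaks of this kind were in ENSG00000285043 with a score of 495 and in FOSL1 with 293 and 234. PFN1, the actin-binding protein profilin, had one of 69.

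By best match, the seedless peaks fell into 169 with a 6mer, 15 with an offset 6mer, 59 with a wobble or bulge and 254 (51.1%) with none of these. Of the 254, 76 held ACCCC and 178 (35.8% of all seedless peaks) held none of the forms searched. The median score was 18 with a 6mer, with an offset 6mer and with a wobble or bulge, and 13 for the 254. It was 28 in 99 peaks with an 8mer and 19.5 in 274 with a 7mer.

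A score above 50 was reached by 28 of the 169 6mer peaks (16.6%, CI 11.7–22.9%) and by 46 of the 274 7mer peaks (16.8%, CI 12.8–21.7%). The difference was -0.220 points (CI -7.10 to 7.25, Fisher's exact test, two-sided, p = 1, adjusted p = 1). The comparisons between kinds of match were chosen after the data had been seen and were adjusted over 6 tests. Of the 254 peaks without a 6mer, offset, wobble or bulged match, 23 (9.06%) scored above 50, 7.51 points fewer than 6mer peaks (CI 1.12 to 14.5, same exact test, p = 0.0226, adjusted p = 0.0339). Of the 178 without any form, 11 (6.18%) did, 10.4 points fewer (CI 3.74 to 17.3, same exact test, p = 0.0034, adjusted p = 0.0068).

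**Figure D3:**
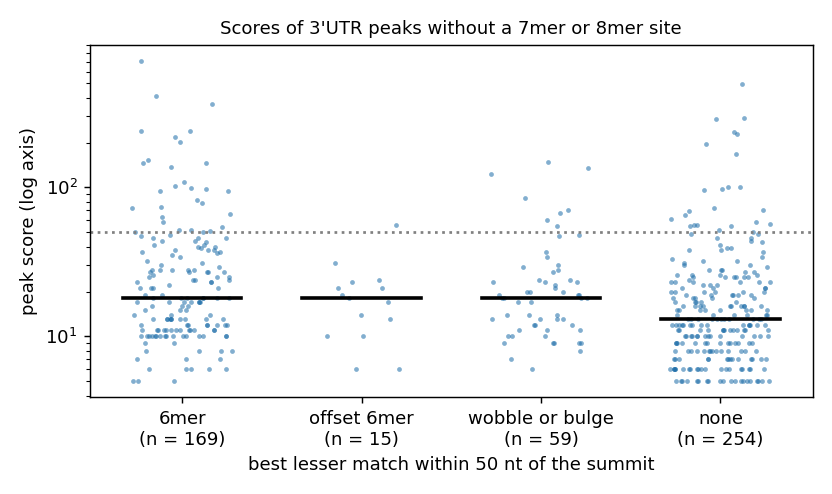
Score of each of the 497 seedless 3′UTR peaks (points, log axis) by the best match within 50 nt of its summit, with medians as black bars and a dotted line at a score of 50. The medians are 18, 18, 18 and 13 from left to right, and the highest peak, 710, holds a 6mer.

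Taken as a set, seedless peaks more often had stronger predicted pairing with miR-342-5p at the summit than beside it. The duplex of miR-342-5p with the summit window was compared with that of a window 200 nt to the 5′ side in the 324 peaks where this window lay in the same 3′UTR exon. The median energy was -16.6 kcal/mol at summits and -15.7 kcal/mol in the flank, and a lower value is a more stable duplex. It was more stable at the summit in 190 of the 317 pairs that differed (59.9%, CI 54.5–65.2%, exact binomial test, two-sided, p = 4.8e-04, adjusted p = 0.00105). Above a score of 50 the share was 54.5% and did not pass 0.05 (same exact test, p = 0.728). By best match, the median energy was -17.1 with a 6mer, -18.8 with an offset 6mer, -18.0 with a wobble or bulge and -15.7 kcal/mol with none of these, beside -20.3 with an 8mer and -18.1 with a 7mer. The kinds of match were not compared with their own flanks, and the part of base composition was not tested.

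A 6mer or offset 6mer was the best match in 184 of the seedless peaks (37%, CI 32.9–41.4%). Among the 1154 miR-342-3p 3′UTR peaks that lacked a miR-342-5p site, 24 held the same matches (2.08%, CI 1.40–3.08%). The difference was 34.9 points (Fisher's exact test, two-sided, odds ratio 27.7, p = 2.8e-80, adjusted p = 3.1e-79). Both lists were called over the same negative control libraries. Outside 3′UTRs, 752 of the 2542 seedless miR-342-5p peaks of coding exons held these matches (29.6%, CI 27.8–31.4%), 7.44 points fewer than in 3′UTRs (odds ratio 1.40, same exact test, p = 0.00119, adjusted p = 0.00186). The difference was 11.6 points with 1 peak per gene, 11.9 without peaks near a peak with a site and 14.8 above a score of 50.

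**Figure D4:**
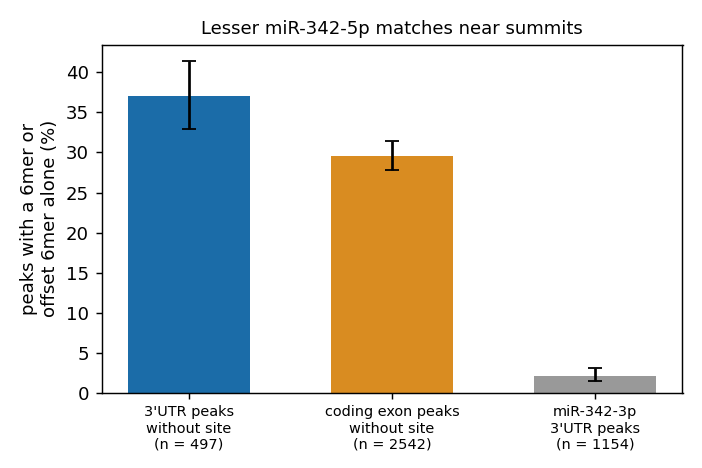
Percentage of peaks with a 6mer or offset 6mer alone near the summit (bars, from 0) with 95% Wilson intervals, for the seedless miR-342-5p peaks of 3′UTRs, those of coding exons, and 3′UTR peaks of miR-342-3p that lack a miR-342-5p site. The bars stand at 37%, 29.6% and 2.08%.

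For miRNAs that are abundant in many cells, no difference in sites between summits and flanks was detectable. Of the 324 windows with a 5′ flank in the same exon, 93 (28.7%) held a 7mer or 8mer site of 1 of 22 such miRNAs, and 94 of the flanks (29.0%) did (exact McNemar test, two-sided, p = 1, adjusted p = 1). Over all 497 windows, miR-24-3p had the most, 26, against 3 on the opposite strand and 13 and 4 in the flanks. MiR-34a-5p sites were in 19 windows, against 13 on the opposite strand and 14 and 13 in the flanks. These miRNAs were picked from the 22 for their counts, and the levels of miRNAs in these cells were not measured here.

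Seedless peaks lay in runs. A further miR-342-5p peak lay on their strand within 200 nt of 318 of them (64.0%, CI 59.7–68.1%) and of 138 peaks with a site (37%, CI 32.3–42.0%). The difference was 27.0 points (Fisher's exact test, two-sided, odds ratio 3.03, p = 3.6e-15, adjusted p = 1.3e-14). With 1 peak per gene, the shares were 46.8% and 31.6%, a difference of 15.1 points (same exact test, p = 8.9e-05). A peak with a site was within 200 nt of 142 seedless peaks (28.6%), and 53 peaks with a site (14.2%) had another such peak as near. The 178 peaks without any form of match had a neighbour in 144 cases (80.9%), against 81 of the 169 6mer peaks (47.9%), a difference of 33 points (CI 23.1 to 42.0, Fisher's exact test, two-sided, p = 1.0e-10, adjusted p = 6.0e-10). A neighbour held a site or a 6mer for 107 of the 178 (60.1%) and for 53 of the 169 (31.4%). Of the 178, 67 (37.6%) scored under 10, against 17 of the 6mer peaks (10.1%, same exact test, p = 1.7e-09, adjusted p = 5.1e-09). Whether the caller divided 1 stretch of bound RNA into several peaks was not tested.

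High seedless peaks beside a peak with a site were in ADM, PFN1, PTBP1, MKNK2 and RAC2. In ADM, which encodes the vasodilator peptide adrenomedullin, a peak of 70 lay 1 nt from one of 634 with a site. The PFN1 peak of 69 lay 3 nt from one of 189. In PTBP1, a splicing regulator, the order was the other way, with 63 for the seedless peak and 16 for the peak with a site. The MKNK2 peak scored 59 beside one of 30 and the RAC2 peak 59 beside one of 25.

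The 497 peaks lay in 325 genes, 1.65% of the 19677 protein-coding genes with an annotated 3′UTR. A single seedless peak was present in 235 genes, 2 in 56, and 3 or more in 34 genes that held 150 of the peaks. Of the 325 genes, 226 had seedless peaks as their only miR-342-5p peaks in the 3′UTR, and 99 (30.5%) also had a peak with a site. SLC7A5, which encodes the amino acid transporter LAT1, had the most, 10, with a median score of 19.5. Its peaks from the stop codon onward scored 6, 7, 8, 21 and 18, then 24 for its only peak with a site, and then 25, 25, 21, 146 and 10. The peak of 146 held the only 6mer of the 10. SLC3A2, the partner chain of LAT1, held seedless peaks of 66, with a 6mer, and 5, and was chosen after its values were seen.

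PLEC had 8 seedless peaks and no peak with a site, and 5 of the 8 held a 6mer. From the stop codon they scored 52, 55, 97, 408, 288, 146, 137 and 57, all above 50. FOSL1 had 7, of 13 to 293 with a median of 50, and the only one with a 6mer, 241, lay in the 3′UTR of one transcript and was coding in another. The 5 peaks of BSG scored 195, 96, 136, 201 and 11 from the stop codon, without a peak with a site. CALR had 52, 13, 23 and 219 in the same order, with 6mers in the first and the last. The 6 of CMIP scored 18, 17, 361, 26, 6 and 17, with 6mers in the second and the third.

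**Figure D5:**
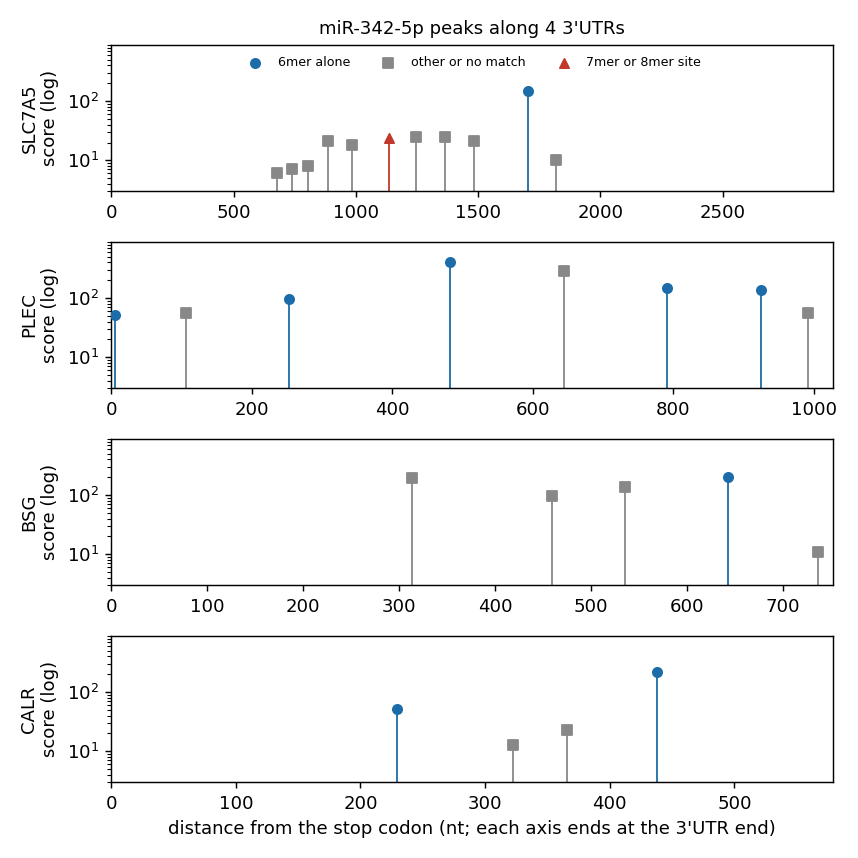
Score (y axes, log) of each miR-342-5p peak along the 3′UTRs of SLC7A5, PLEC, BSG and CALR by distance of its midpoint from the stop codon in nt (x axes, each ending at the end of the 3′UTR). Circles are seedless peaks with a 6mer, squares other seedless peaks and the triangle a peak with a 7mer or 8mer site. The highest peak of each 3′UTR shown, 146, 408, 201 and 219, holds a 6mer. The genes shown are examples, and this did not hold in every gene. In FOSL1, SLC6A6 and SLC1A5 the highest seedless peak, 293, 56 and 98, held no 6mer. The highest in CMIP, 361, did.

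The other genes with 3 or more had mostly low scores. MAP3K14, the kinase NIK of non-canonical NF-κB signalling, and NFIC, a nuclear factor I transcription factor, had 7 each, with medians of 12.0 in both. ANKRD11, FOXP4 and GLIS2 had 6 each with medians of 9.50, 6.50 and 7.50. SLC6A6, the taurine transporter, and SPRED3, of the SPRED family of Ras pathway inhibitors, had 5 each, with highest scores of 56 and 11. There were 4 each in ATXN2L, BCL3, TPD52L2 and ZNF580, whose highest scores ran from 17 in TPD52L2 to 49 in ATXN2L. The 16 genes with 3 peaks were ADM, ATP6V0C, BCL2L1, BHLHE40, BTBD2, FAF2, FAM222B, MKNK2, PTDSS2, RAD21, RAVER1, SLC1A5, SYNGR2, SYVN1, UBALD1 and UNC93B1. Of these, ATP6V0C, a subunit of the proton-pumping V-ATPase, reached 99 and SLC1A5, the glutamine transporter ASCT2, 98.

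Among the peaks without any form of match, the 5 highest were in RPL23 with 229, BSG with 195, IFITM3 with 168, ARL6IP5 with 100 and SLC1A5 with 98. Those in RPL23 and IFITM3 were coding in another transcript. MMP1, the interstitial collagenase, had one of 61 and was chosen after its values were seen. In the miR-342-3p list, the highest peak in the gene was 158 for SLC1A5, 193 for MARK3 and 1125 for IER3, each in the 3′UTR, where the highest seedless miR-342-5p peaks were 98, 123 and 103. The lists share their control libraries.

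The midpoint of 69 seedless peaks (13.9%, CI 11.1–17.2%) was coding in another transcript, in 67 cases of the same gene. This was so for 33 peaks with a site (8.85%, CI 6.37–12.2%), a difference of 5.04 points (Fisher's exact test, two-sided, odds ratio 1.66, p = 0.0251, adjusted p = 0.0346). Above a score of 50 the difference was 10.4 points and did not pass 0.05 (same exact test, p = 0.115). Peaks of this kind in ENSG00000285043, RPL23 and IFITM3, and the FOSL1 peak of 241, are among the 15 highest. For 6mer peaks the share was 14.2% and for the 254 without a lesser match 12.6% (same exact test, p = 0.662, adjusted p = 0.794).

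A site counted only where it lay wholly within 50 nt of the summit. In 8 seedless peaks a site reached into the window without lying wholly inside it, and their scores ran from 5 to 63, the PTBP1 peak, with a median of 12.5. Of the other seedless peaks, 9 had their nearest site 51 to 60 nt from the summit, with a median score of 12.0. The sites of 14 peaks with a site all reached past 40 nt, and the median score of these was 8.50. In 7 of all seedless peaks a site lay elsewhere in the peak.

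Seedless peaks also lay in genes of the actin cytoskeleton. RAC2, a haematopoietic Rac GTPase, had peaks of 59 and 11, and PFN1 had 69 and 7. The actin crosslinkers ACTN1 and ACTN4 had peaks of 46 in the first and of 31 and 23 in the second. TLN1, the integrin-binding talin, had 23 and 15. The higher peak of RAC2 and the peak of ACTN1 held a 6mer. Transcripts of such genes can be abundant, and their levels were not measured here.

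Among gene lists by function, 2 of 35 genes of the endoplasmic reticulum and secretion held seedless peaks (5.71%, beside 1.65% of all genes), P4HB and CALR. Among 18 genes of glycolysis and lactate, 1 held a seedless peak (5.56%). It was PKM, the pyruvate kinase, with a score of 67 and a wobble or bulged match. Of 20 genes of lipid synthesis, 1 held seedless peaks (5.00%). It was ACLY, which makes cytosolic acetyl-CoA, with scores of 10 and 7. Among 42 genes of E2F and DNA replication, 1 had a seedless 3′UTR peak (2.38%). That gene was DNMT1, the maintenance DNA methyltransferase, where the peak scored 27 and held a 6mer. Of 30 surface, adhesion and receptor genes, BSG alone held them (3.33%), and 0 of 28 genes of RNA silencing and decay did. The 1.65% counts every annotated gene, expressed in these cells or not, and the lists were not matched to it for expression. The shares are therefore counts only and show no excess. The lists were drawn up with results of these data known, and no test was made.

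Of 12 genes that the study names for miR-342-5p, 3 held seedless 3′UTR peaks, beside 1.65% of all genes. The study picked these genes partly because they held a miR-342-5p peak in this experiment. A higher share was therefore partly fixed in advance, and nothing is drawn from it. These were ACLY and RAC2, each with 2 and with 2 peaks with a site, and TTYH3, a chloride channel family member, with 1 of 23 that held a 6mer and no peak with a site. AP2S1, CKB, NACC1, NFIA, PRELID1 and STRADB had 1 peak with a site each in the 3′UTR and no seedless peak. ECT2, GTF2A2 and RDX had no 3′UTR peak.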

How the data were processed

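The authors trimmed and mapped the reads, called peaks of either miR-342 mimic against the negative control with replicates merged and strands separate, and deposited 2 lists with the position, strand, summit and score of each peak. The deposited score is described by the authors as reads above background, with a minimum of 5 in the lists. How libraries were scaled is not given in the sources used here. The submitters' processing notes name cutadapt 1.13, TopHat2 2.0.13, UMI-tools, MACS2 2.1.1.20160309 and hg19.

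Coordinates were read as 0-based starts and are printed 1-based. Peaks were placed by midpoint on GRCh37, to which hg19 corresponds, with GENCODE release 44 basic transcripts, 3′UTR before coding exon and the stop codon counted in the 3′UTR. Windows reached 50 nt on each side of the summit. A 6mer or offset 6mer within a 7mer or 8mer was not counted. There were 5 wobble and 11 bulged words of the 7mer GCACCCC. Neighbours were peaks with a gap of at most 200 nt. Python 3.11.15, numpy 2.4.6, scipy 1.17.1, pysam 0.24.0, samtools 1.23.1, RNAduplex 2.7.2 and matplotlib 3.10.9 were used. The search was tested on simulated windows.

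The members, lists and tests were chosen with earlier results of these data known. Genes are named by rule: the 15 highest scores, the study's named genes, genes with 3 or more members, the 5 highest of each kind of match or beside a peak with a site, and listed genes with a score above 20. Other names served as examples and were chosen after their values were seen. Alternatives covered scores, windows, backgrounds, location order and 1 peak per gene. Some genes that the rule names, and 1 gene list, are not reported here. Depth per library is unknown. RNA-seq and proteomic data were not analysed here.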

Additional observations from a re-analysis of the deposited data

How the results depend on the processing

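No paired analysis was possible because the deposited lists merge the replicates, and for the same reason no replicate could be left out. Of 96 recomputed values, 88 kept their side of 0.05 with the same direction where a test passed, or stayed within 1.5 times for counts, and 0 reversed. A score above 50 left 60 seedless peaks in 46 genes, and 1 peak per gene left 325. At a score above 50, the difference in coding position was 10.4 points (exact test, p = 0.115) and the share of more stable duplexes 54.5% (exact test, p = 0.728), and neither passed 0.05, while both did under the other alternatives run. With a threshold of 100 the score difference was -3.21 points (exact test, p = 0.0643). The offset 6mer passed over the whole peak (2.95 points) and within 25 nt (2.50 points). Fewer peaks were tested at higher scores. Other causes were not tested. Not run because they could not change or give a value were the coding share with coding exons first and the score share among peaks above 50. Without peaks near a peak with a site, an alternative chosen after seeing the data, another peak was near 49.6% of seedless peaks and 26.6% of peaks with a site (exact test, p = 9.0e-10). The limits are the unknown depth, the merged replicates and peaks as units.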
